A study of Mus musculus with 6 samples.

Results

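Splicing factors and heterogeneous nuclear ribonucleoproteins (hnRNPs) were followed across tibialis anterior muscle, a muscle of the mouse shin, after eccentric contractions, isometric contractions or neither. The members were the probe sets that the array's annotation assigns to a single gene whose symbol begins with Srsf, Snrp, Hnrnp, Sf3a, Sf3b or U2af. A probe set is a group of short oligonucleotides read together as 1 signal, and some probe sets match more than 1 transcript. There were 61 such probe sets for 44 genes, among 10833 probe sets of 8251 genes with 1 gene each and 12488 probe sets on the array. One of the 44 genes, Snrp1c-ps2, is a pseudogene in the RefSeq gene table.

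Each of 3 groups was 1 pool of total RNA from the tibialis anterior of 4 mice, killed 48 h after exercise, and each pool was hybridised to 2 Affymetrix MGU74Av2 arrays, lettered A and B. The eccentric pool came from legs given 50 contractions in which the active muscle was lengthened, and the isometric pool from legs given 50 contractions at fixed length. The control pool came from opposite legs, which had contracted only as often as a torque measurement needed. The labels give no strain, sex or age, and do not say which exercised animals supplied the control legs. Arrays A and B share their pooled RNA, so a group is 1 biological sample, their spread covers labelling and hybridisation only, and contraction types are compared without a p-value.

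Introns are removed from transcripts by the spliceosome, which is assembled from small nuclear ribonucleoproteins (snRNPs), most of them built on a ring of Sm proteins. The U1 snRNP recognises the start of an intron. The U2 auxiliary factor and the U2 snRNP, with its SF3a and SF3b complexes, recognise the branch site and the end. SR proteins, rich in arginine and serine, generally favour the use of an exon when bound to it, whereas hnRNP proteins coat nascent RNA and often repress nearby splice sites. Skeletal muscle relies on regulated splicing for the isoforms of troponin T, titin and other sarcomere proteins. The arrays measured the amount of transcript per probe set, not splice isoforms.

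Of the 44 genes, 7 had a probe set that differed by at least 1.5-fold between 2 pools with no overlap of their arrays. RefSeq promoter sequences (GRCm38.p6) were in hand for 5 of these 7, and 38 of all 44. The 150 bases before the start of each of the 5 are shown because these are the genes on which the results turn. Letters are lower case except where a motif searched on both strands was found: the CCAAT box (CCAAT), the GC box (GGGCGG), a site for ETS factors (CCGGAAG), the core of the cyclic AMP response element (TGACGTCA), paired heat shock element units (GAANNTTC) and the TATA box (TATAAA). Capitals that run together can belong to overlapping motifs.
Srsf6, chr2:162931358-162931507, plus strand: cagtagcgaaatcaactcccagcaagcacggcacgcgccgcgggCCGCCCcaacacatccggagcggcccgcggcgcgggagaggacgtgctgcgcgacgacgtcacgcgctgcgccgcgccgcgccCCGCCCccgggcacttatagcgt
Hnrnpm, chr17:33685459-33685608, minus strand: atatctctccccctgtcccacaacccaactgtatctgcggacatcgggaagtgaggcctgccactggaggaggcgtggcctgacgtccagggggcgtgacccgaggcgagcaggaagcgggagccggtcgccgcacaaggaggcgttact
Srsf3, chr17:29032510-29032659, plus strand: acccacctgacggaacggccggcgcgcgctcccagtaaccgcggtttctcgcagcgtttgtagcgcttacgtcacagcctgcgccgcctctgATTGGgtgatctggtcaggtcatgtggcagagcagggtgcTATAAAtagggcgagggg
Sf3b6, chr12:4817458-4817607, plus strand: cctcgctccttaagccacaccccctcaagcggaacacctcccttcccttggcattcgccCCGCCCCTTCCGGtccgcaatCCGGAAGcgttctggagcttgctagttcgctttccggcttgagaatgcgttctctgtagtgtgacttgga
Snrpb2, chr2:143062919-143063068, plus strand: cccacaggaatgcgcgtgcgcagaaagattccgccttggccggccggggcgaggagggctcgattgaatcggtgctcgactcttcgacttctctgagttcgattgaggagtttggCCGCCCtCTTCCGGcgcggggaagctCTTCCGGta

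The 5 sequences did not share a motif. That of Srsf6 held 2 GC boxes, that of Srsf3 a CCAAT box and a TATA box, those of Sf3b6 and Snrpb2 each 1 GC box and 2 ETS sites, and that of Hnrnpm none of the letters searched. Over 49 promoter windows of member genes, several genes having more than 1, the ETS site was present in 24.5% against 5.52% of all 32851 windows of this length. The GC box was present in 57.1% against 28.6% and the CCAAT box in 38.8% against 24.5%. The other motifs were in few member windows, the heat shock units in 4, the TATA box in 3 and the cyclic AMP core in 1, or 8.16%, 6.12% and 2.04% against 3.95%, 7.57% and 1.36%. These are matches of letters and do not show that a factor binds.

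Signals are linear intensities scaled to equal trimmed means, and values below 120.8, the 40th percentile of all values, were set to that floor before log2 was taken. A probe set was measured in a comparison when both arrays of at least 1 of its pools lay above the floor. A difference is the mean log2 signal of one pool minus that of the other, and a fold is the same difference as a ratio. Arrays of 2 pools do not overlap when all 4 pairings of an array of one with an array of the other have the same sign. Of the 61 member probe sets 48 lay above the floor on all 6 arrays and 5 on none (second or further probe sets of Hnrnpab, Hnrnpdl, Hnrnpu, Snrpb and Srsf1). All 3 comparisons measured 51, and 7 entered no comparison.

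The arrays had median signals of 187 to 197. 18S rRNA was brighter on control A (geometric mean signal 15860) than on control B (3870), and on isometric B (23476) than on isometric A (1761). Probes for the 3' end of beta-actin were brighter than those for its 5' end, a usual gauge of RNA integrity, by a log2 ratio of 0.43 and 0.45 on the eccentric arrays, 0.01 and 0.07 on the control arrays and 0.14 and 0.28 on the isometric arrays. For Gapdh this ratio was 0.12 and 0.13 on the eccentric arrays and -0.05 and -0.07 on the control arrays. On isometric A and B it was -0.07 and 0.27, so the highest Gapdh ratio was that of isometric B. All 14 muscle-fibre marker genes were on the array, and 18 of their 21 probe sets were measured. Their summed signal was 438168 and 357678 on the control arrays, 332403 and 320509 on the eccentric arrays and 316948 and 436537 on the isometric arrays. The summed signal of 25 macrophage and monocyte markers was 16570 and 17802 on the control arrays, 45305 and 45555 on the eccentric arrays and 26963 and 25699 on the isometric arrays. That of 18 genes of dividing cells was 4661 and 5328, 8145 and 8560, and 6465 and 6171 in the same order. Of the 36 macrophage and monocyte probe sets 18 lay above the floor on all arrays and 6 on none, and 0 of the marker probe sets had a signal of 0. In the eccentric against the control pool 24 of 27 measured macrophage probe sets and 10 of 17 of dividing cells were higher by at least 1.5-fold, and 4 of the 18 muscle-fibre probe sets lower. The median log2 difference of the muscle-fibre probe sets was -0.28, and 2 of the 18 had one above 0. In bulk muscle, fewer cells of a type and less RNA per cell cannot be told apart, and the part of these cells and of RNA quality in the differences below was not tested.

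Eccentric contractions were compared with the control first, which asks what differed in muscle 48 h after lengthening under load. The splicing genes as a set differed little in size. Among 53 measured member probe sets, 1 was higher and 0 lower by at least 2-fold, where 5.00% of all 6744 measured probe sets were higher and 1.13% lower. By 1.5-fold 5 were higher and 1 lower, or 9.43% and 1.89%, where 11.9% of all were higher and 7.56% lower, so large differences were no more frequent among the members than on the whole array. Small differences had mainly 1 sign. Arrays of the pools did not overlap for 23 members with the eccentric pool higher (43.4%) and for 4 with it lower (7.55%), against 30.4% and 31.0% of all probe sets. The median log2 difference of the members was 0.15, and 0.10 to 0.27 by pairing of arrays, against -0.02 over all.

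Part of that pattern rested on control A. The members read lower on control A than on control B, with a median log2 difference between these arrays of -0.19 over 51 members, where all probe sets had one of -0.00065. Without control A, 29 members were higher with no overlap (52.7%) and 16 lower (29.1%), against 38.9% and 44.5% of all probe sets, and the median was 0.11. Without control B the members' counts were 36 and 8, against 39.4% and 46.3% of all, and the median was 0.24. The median of the members stayed above that of all probe sets in every choice of arrays, as the plot of medians with arrays left out shows.

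**Figure D1:**
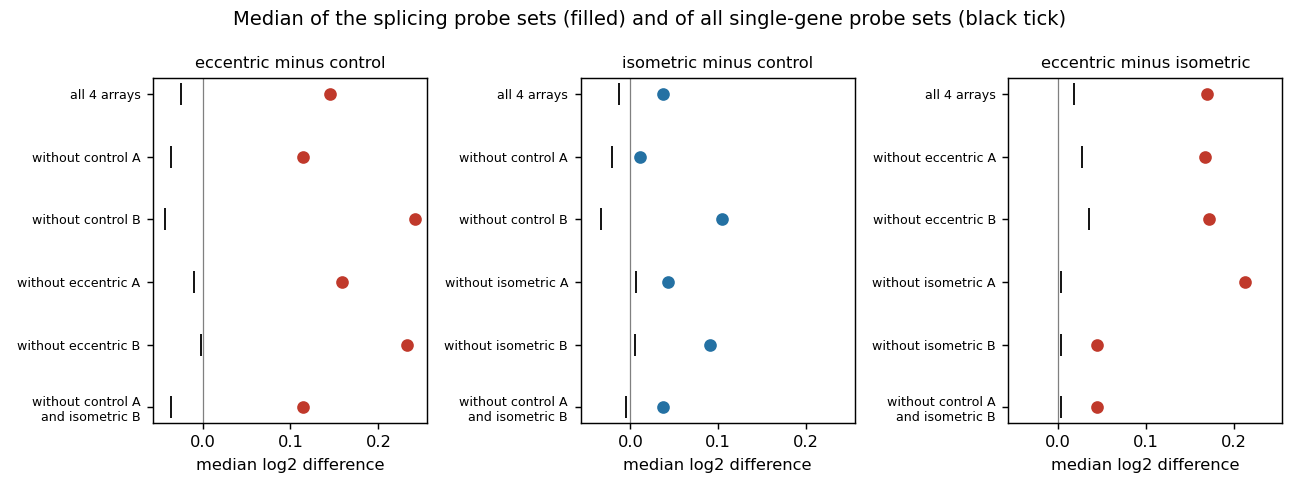
Median log2 difference (x axis) of the member probe sets (filled points) and of all measured single-gene probe sets (black ticks), with all 4 arrays of a comparison and with arrays left out (y axis). In the eccentric minus control panel the members lie between 0.11 and 0.24 and all probe sets at or just below 0; the eccentric minus isometric point falls to 0.045 without isometric B.

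SR proteins held the 1 member past 2-fold. Srsf6, an SR protein that regulates alternative exons, had signals of 509 and 535 on control A and B, 1678 and 1203 on eccentric A and B, and 733 and 801 on isometric A and B. Both eccentric arrays lay above all others and both isometric arrays above both control arrays. The eccentric pool was 2.72-fold higher than the control pool (log2 difference 1.44, pairings 1.17 to 1.72).

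Srsf3, the smallest SR protein and one that also acts in RNA export, gave different answers by probe set. The one with suffix f, which marks probes shared within a sequence family, read 223 and 410.1 on the control arrays, 467 and 601 on the eccentric arrays and 433 and 375 on the isometric arrays. The eccentric arrays were above both controls, at 1.75-fold, but control A and B differed more from each other (log2 difference 0.88) than the pools did (0.81). Without control A this difference was no longer past 1.5-fold. The other Srsf3 probe set read 213 and 142 on the control and 166 and 145 on the eccentric arrays, which overlapped, with a log2 difference of -0.17.

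Srsf2, also called SC35 and a core factor of nuclear speckles, read 3141 and 3460 on the control arrays and 4577 and 4411 on the eccentric arrays of its brighter probe set, 1.36-fold higher with no overlap. The isometric arrays of that probe set, at 3444 and 3415, lay within the control range. The other Srsf2 probe set read 1056 and 689.9 on the control and 1234 and 777 on the eccentric arrays. These overlapped, with a log2 difference of 0.20. Srsf9, which can favour or repress exons, was 1.49-fold higher at 905 and 880 against 531 and 676. Srsf1, a founding member of the family, had one probe set higher with no overlap (log2 difference 0.44), though its control A lay below the floor, and another lower, at 151.5 and 159.9 on the control arrays and below the floor on the eccentric and isometric arrays, at least 1.29-fold lower in both. Srsf10, a repressor when it loses its phosphates, read 246 and 225 on the control arrays and 141 and 252 on the eccentric arrays, the lowest SR difference above the floor on all arrays (-0.32) and an overlapping one. Srsf4, Srsf5 and Srsf11 had overlapping arrays and log2 differences of -0.26 to 0.13. In all 13 SR probe sets were measured, 5 higher and 1 lower with no overlap, against 30.4% and 31.0% of all probe sets. Past 1.5-fold 2 were higher, against 11.9% of all, and the median of the 13 was 0.13.

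**Figure D2:**
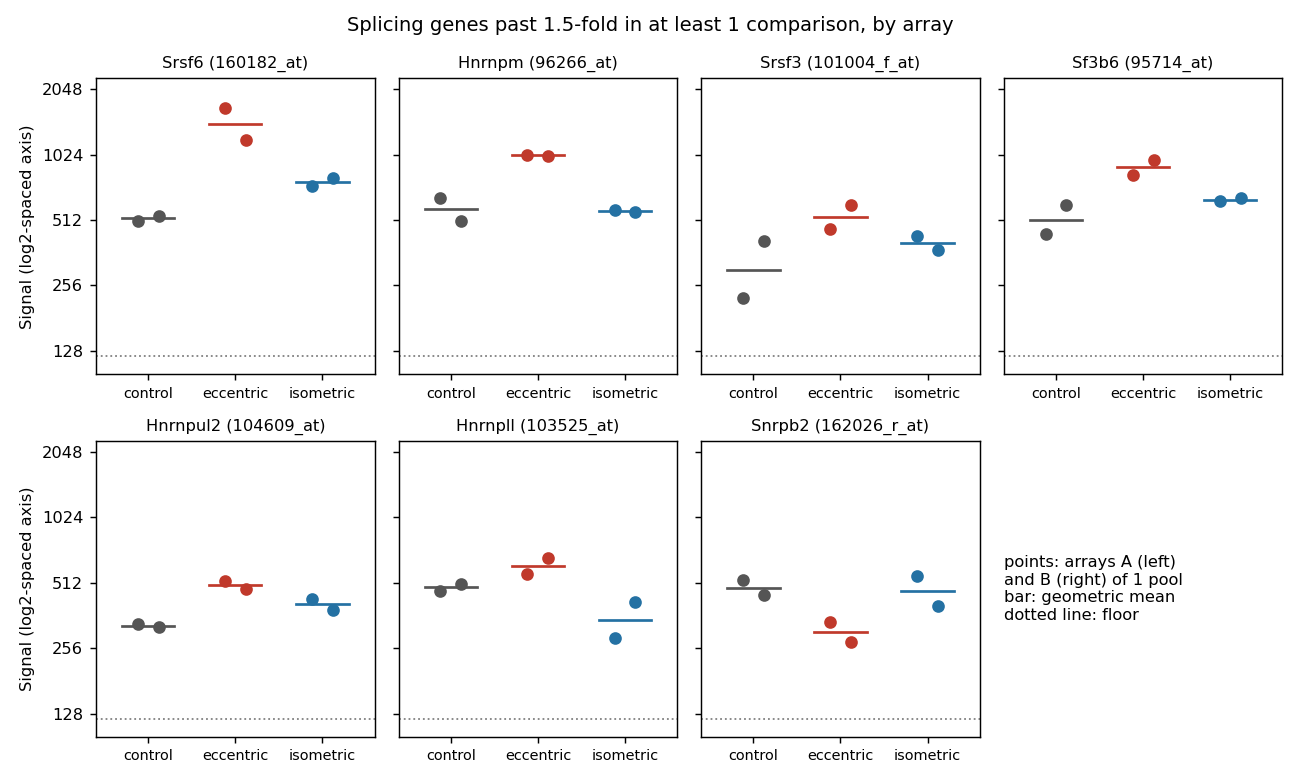
Signal (y axis, log2-spaced) on arrays A and B of the control, eccentric and isometric pools (x axis) for the 7 probe sets past 1.5-fold in at least 1 comparison; bars are geometric means of a pool and the dotted line is the floor of 120.8. Srsf6 reaches 1678 and 1203 in the eccentric pool, and Snrpb2 is the 1 probe set whose eccentric arrays lie below all others.

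SF3a and SF3b subunits, which hold the U2 snRNP on the branch site, were measured with all 10 probe sets of 8 genes. All 10 had differences above 0, where 47.8% of all probe sets did, with a median of 0.23. This held under the scalings, floors and filters tried (9 of 9 with the highest floor), but was 7 of 10 without control A and 9 of 10 without eccentric B. Sf3b6, the subunit that contacts the branch-site adenosine, read 440.4 and 600.0 on the control arrays, 830.0 and 973 on the eccentric arrays and 624 and 647 on the isometric arrays. Eccentric arrays lay above all others, 1.75-fold over the control pool, though not past 1.5-fold without control A. Sf3b5, a small subunit, was 1.46-fold higher at 1214 and 1366 against 1052 and 741, and Sf3b2 was 1.27-fold higher. Sf3b1, the largest subunit and the one altered in some blood cancers, had the lowest difference, 0.05, at 446 and 527 against 406 and 539.8, with overlap, and its second probe set overlapped as well. With no overlap 5 of the 10 were higher and 0 lower, against 30.4% and 31.0% of all probe sets.

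The U2 auxiliary factor had 3 genes, each with 1 probe set. U2af1, the subunit that reads the AG at the end of an intron, was 1.41-fold higher at 1026 and 1160 on the eccentric against 722 and 823 on the control arrays, with isometric arrays of 1243 and 734. U2af2, which binds the pyrimidine tract, read 2978 on both control arrays and 3498 and 3471 on the eccentric arrays, a 1.17-fold difference with very close arrays. U2af1l4, a relative of U2af1 that can replace it, was lower by the narrowest margin, at 825 and 871 against 1010.0 and 872, and the isometric arrays read 1076 and 1029.

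Sm and other U1 and U2 snRNP proteins were mixed. Of 8 measured probe sets 2 were higher and 2 lower with no overlap, against 30.4% and 31.0% of all, and the median was -0.10. Snrpg, an Sm ring protein, was 1.46-fold higher at 1052 and 1094 against 748 and 724, with isometric A at 757 and isometric B at 1120.4. Snrpe, of the same ring, was 1.29-fold higher. Snrpb2, a protein of the U2 snRNP, was the 1 member lower past 1.5-fold, at 337 and 273 on the eccentric arrays against 525 and 451 on the control and 549.9 and 398 on the isometric arrays. It is read by a probe set with suffix r, chosen with relaxed design rules, and its other probe set lay at or near the floor (113 and 135 in the control, 109 and 110.4 in the eccentric pool). Without control A, or without eccentric B, the difference no longer reached 1.5-fold. Snrpd3, also of the Sm ring, was lower at 468 and 624 against 734 and 759, a log2 difference of -0.47. The log2 differences of Snrpb, Snrpc and Snrpa1 were -0.14, -0.07 and 0.06, each with overlap. The probe set of the pseudogene Snrp1c-ps2 read 743 and 257 on the 2 eccentric arrays, the largest disagreement of any member within that pool.

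The hnRNP genes had 9 of 19 measured probe sets higher and 0 lower with no overlap, against 30.4% and 31.0% of all probe sets. Past 1.5-fold 2 were higher, against 11.9% of all, and the median was 0.14. Dropping control A gave 10 higher and 6 lower (median 0.089), where 38.9% of all probe sets were higher and 44.5% lower. Dropping control B gave 16 and 0 (median 0.26), against 39.4% and 46.3% of all. Hnrnpm, which binds GU-rich RNA, read 650.4 and 509 on the control arrays, 1025 and 1011 on the eccentric arrays and 569 and 559 on the isometric arrays. The eccentric pool stood alone above both others, 1.77-fold over the control pool. Hnrnpul2, a relative of the scaffold protein hnRNP U, was 1.54-fold higher at 524 and 478 against 331 and 320.1, with isometric arrays of 433 and 385 between them. Its second probe set overlapped, with a log2 difference of 0.10, and the first no longer reached 1.5-fold without eccentric A (log2 difference 0.56), after quantile normalization (0.58) or with log2(signal + 50) (0.55).

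Other hnRNP genes with no overlap stood below 1.5-fold. Hnrnpl, which binds CA-rich RNA, lay just inside the threshold with a log2 difference of 0.58, at 687 and 663 against 479.7 and 423. Hnrnpk, which binds C-rich RNA, was 1.42-fold higher at 591 and 650.1 against 430.4 and 441, and Hnrnpr 1.28-fold higher. Hnrnpc, which binds uridine tracts, was 1.17-fold higher, and Hnrnpll, a relative of hnRNP L known for its part in splicing of the leukocyte gene Ptprc, was 1.25-fold higher. Both measured probe sets of Hnrnpdl were higher, at 1.35-fold and 1.10-fold. Hnrnpa2b1 and Hnrnpa1, known for repressing exons, did not separate on the probe sets assigned to them alone. Hnrnpa2b1 had log2 differences of -0.10 and -0.01 on 2 probe sets. Hnrnpa1 had one of -0.25, the lowest of the group, at 142 and 178 against 147 and 242. Its control arrays differed more than that, with a log2 difference of -0.71 for control A minus control B. The G-run binders Hnrnph1, Hnrnph2 and Hnrnph3, at -0.03, -0.08 and -0.09, overlapped too, as did Hnrnpab, Hnrnpd and Hnrnpu at 0.13, 0.15 and -0.03.

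**Figure D3:**
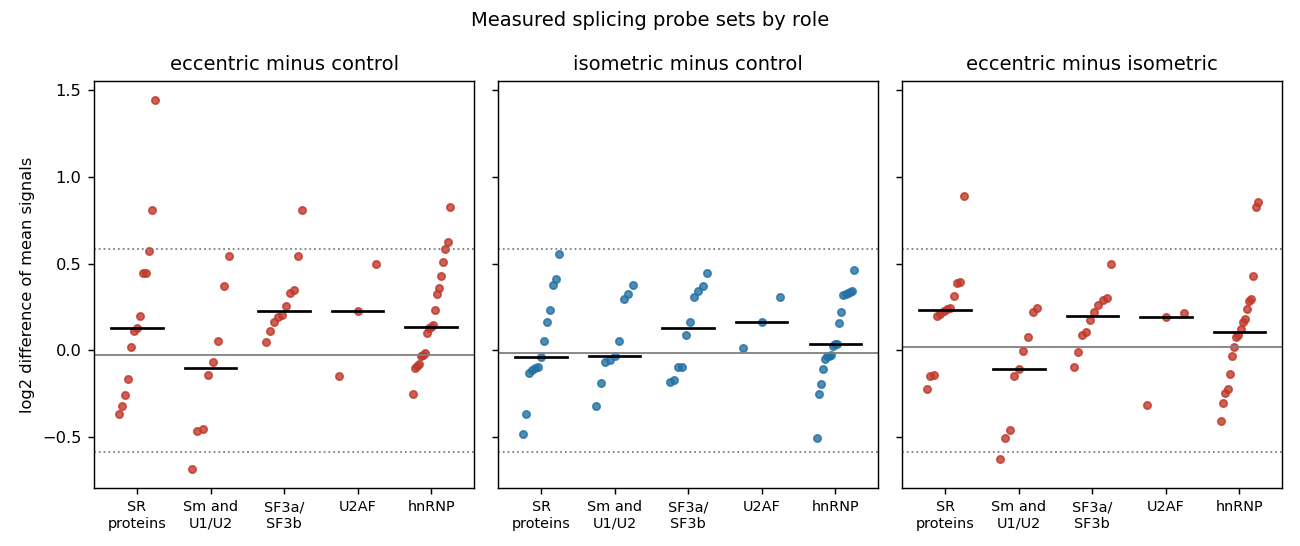
Log2 difference of mean signals (y axis) of each measured member probe set (points, spread sideways by rank) in 5 roles (x axis) for the 3 comparisons; black bars are group medians, the grey line is the median of all single-gene probe sets and dotted lines mark 1.5-fold. The 10 SF3a and SF3b points all lie above 0 in the eccentric minus control panel, and no point in the isometric minus control panel passes a dotted line.

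Genes read by several probe sets limited these results. Of 14 such genes 9 had more than 1 measured, and in 3 of the 9, Srsf1, Srsf3 and Srsf4, the probe sets had opposite signs. The 2 probe sets of Srsf3 differed by 0.97 in log2 difference, more than the pools differed for any member except Srsf6, and those of Srsf1 by 0.81. Those of Sf3a2 and Hnrnpa2b1 differed by 0.09 each.

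**Figure D4:**
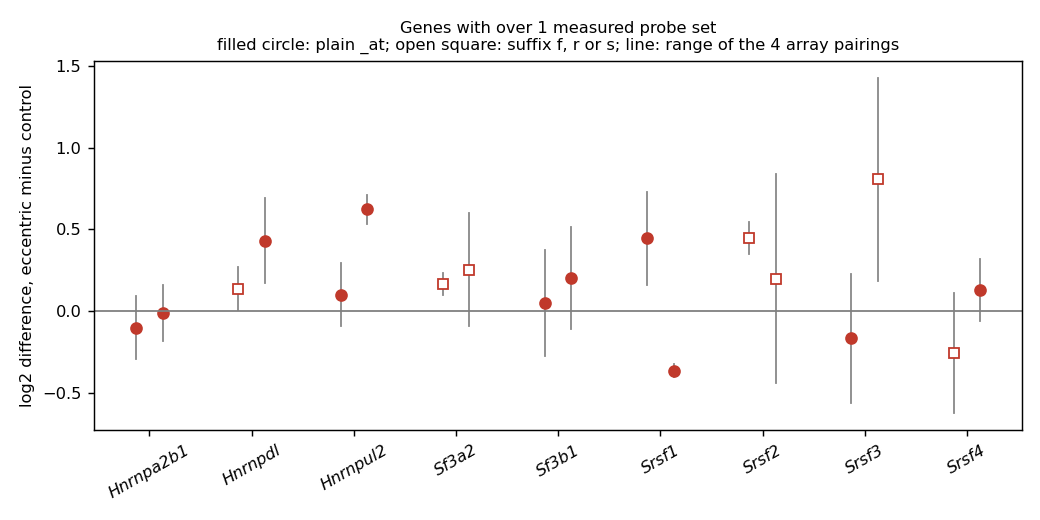
Log2 difference of the eccentric minus the control pool (y axis) for each measured probe set of the 9 genes with more than 1 (x axis); filled circles are plain probe sets, open squares those with suffix f, r or s, and lines span the 4 pairings of arrays. Srsf1, Srsf3 and Srsf4 have probe sets on both sides of 0.

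A further 7 probe sets are assigned to a member gene together with a pseudogene or gene model and were kept out of all counts. Among them Hnrnpa3, an hnRNP of the A group, read 2484 and 2686 on the control arrays, 4038 and 3738 on the eccentric arrays and 3328 and 2450.4 on the isometric arrays, a log2 difference of 0.59 for the eccentric minus the control pool. Snrpa, which binds U1 RNA, had one of 0.51. The shared probe sets of Hnrnpa1 differed in sign. One had a log2 difference of 0.72, unlike the probe set of Hnrnpa1 alone. Another had one of -0.22, with both eccentric arrays below the floor (112.3 and 95.7). Snrpd2, at 0.05, and Snrpd1, at -0.03, showed little difference, and the other Hnrnpa3 probe set lay below the floor on all arrays.

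Isometric legs were set against control legs to see what contraction at fixed length left behind. No member differed by 1.5-fold in either direction among 54 measured, where 3.83% of all 6609 probe sets were higher and 2.75% lower, and none by 2-fold, against 0.908% and 0.363%. With no overlap 13 members were higher (24.1%) and 5 lower (9.26%), against 18.6% and 19.2% of all. Without control A these counts were 18 and 20, against 30.6% and 34.8% of all probe sets, and without isometric A 16 and 18, against 36.2% and 34.5%. Without control B they were 26 and 13, against 32.0% and 38.9%, and without isometric B 25 and 10, against 36.0% and 33.8%. Higher members outnumbered lower ones in the last pair of settings and not in the first pair. The median of the members was 0.04, and -0.03 to 0.22 by pairing, against -0.01 over all.

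Srsf6 had the highest difference here too, 1.47-fold (log2 0.55), with both isometric arrays above both control arrays. Among members with no overlap the dimmer measured probe set of Hnrnpdl, Sf3b2 and Srsf9 followed at 1.38-fold, 1.36-fold and 1.30-fold. The brighter probe set of Hnrnpdl overlapped the control, with a log2 difference of -0.03, and Srsf3 (suffix f) at 1.33-fold overlapped it too. The lowest was Hnrnpll, at 284 and 417 against 470.5 and 506, a log2 difference of -0.50 with no overlap, and next the plain probe set of Srsf3 at -0.48. For that Srsf3 probe set isometric A lay below the floor (116). Its control arrays differed more from each other (log2 difference 0.58) than the pools did. By role the medians were -0.04 for SR proteins, -0.03 for Sm and U1 and U2 proteins, 0.13 for SF3a and SF3b, 0.16 for the U2 auxiliary factor and 0.04 for hnRNPs.

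Eccentric legs were then set against isometric legs, which had contracted as often without being stretched. Of 52 measured members 3 were higher and 1 lower by 1.5-fold, or 5.77% and 1.92%, where 7.55% of all 6653 were higher and 4.87% lower. None reached 2-fold, against 1.73% and 0.631%. With no overlap 16 were higher (30.8%) and 9 lower (17.3%), against 28.2% and 24.3% of all. Without isometric B 23 (44.2%) were higher and 20 (38.5%) lower, close to the 40.4% and 40.8% of all probe sets in that setting. The median was 0.17 against 0.02 over all, but 0.045 without isometric B.

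Past 1.5-fold were Srsf6 at 1.85-fold, Hnrnpm at 1.81-fold and Hnrnpll at 1.77-fold. For Hnrnpll most of this lay in its low isometric arrays, since its eccentric arrays of 560.1 and 666 were only 1.25-fold above the control, and without isometric A it no longer reached 1.5-fold. Hnrnpm differed hardly at all between the isometric and control pools, with a log2 difference of -0.03. Sf3b6 was 1.41-fold higher with no overlap. Snrpb2 was lower on its brighter probe set, with a log2 difference of -0.63. That difference no longer reached 1.5-fold without eccentric B (-0.48) or without isometric A (-0.40). Nor did it with a floor at the 60th percentile (-0.56) or with log2(signal + 50) (-0.55). The dim probe set of Snrpb2, at -0.46, had both eccentric arrays below the floor. It was measured only through its isometric arrays (154 and 179), so the filter fixed its sign and it adds no support. Hnrnph3 and U2af1l4 were lower with no overlap at -0.41 and -0.31. Of 12 measured SR probe sets 6 were higher and 0 lower with no overlap, and of 18 hnRNP probe sets 5 were higher and 5 lower. The shares of all probe sets were 28.2% and 24.3%. Without isometric B the SR counts were 7 and 3 and the hnRNP counts 6 and 10, against 40.4% and 40.8% of all.

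Splicing genes outside the member families were read from 4 lists, beside shares over all probe sets of 11.9% higher and 7.56% lower by 1.5-fold, 30.4% and 31.0% with no overlap, and 5.00% higher by 2-fold. Of 48 measured probe sets of other core spliceosome proteins 3 were higher and 2 lower by 1.5-fold in the eccentric against the control pool. Arrays did not overlap for 11 higher (22.9%) and 7 lower (14.6%), and the median was 0.08. Of 21 for SR-related proteins, SR protein kinases and the exon junction complex 3 were higher and 0 lower by 1.5-fold. In this list 12 were higher (57.1%) and 2 lower (9.52%) with no overlap, and the median was 0.20. Of 40 for other RNA-binding regulators 4 were higher and 0 lower by 1.5-fold, and 11 higher (27.5%) and 5 lower (12.5%) with no overlap. Their median was 0.08. Of 6 for the SMN complex and snRNP assembly 0 passed 1.5-fold, 3 were higher and 0 lower with no overlap, and the median was 0.11. The 3 past 2-fold were Acin1, which associates with the exon junction complex, Ptbp3, which binds pyrimidine tracts, and Rbm4b, an RNA-binding regulator of alternative splicing. Ptbp3 read 223 and 247.5 on the control, 575 and 533 on the eccentric and 495 and 253 on the isometric arrays. Acin1 read 35.3 and 173 on the control against 408 and 321 on the eccentric arrays, and Rbm4b 63.3 and 314 against 391 and 437, so for both control A lay below the floor. In the isometric against the control pool the medians of the 4 lists were 0.01, 0.06, -0.04 and -0.02, and 0 members were past 2-fold.

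A test on the arrays, limma with Benjamini-Hochberg adjustment, compares these pools and not the conditions. Between the eccentric and control pools it called 2 of 53 members at an adjusted p under 0.05, Srsf6 and Hnrnpm, both higher, where 8.63% of all probe sets were called, and 13 members had an unadjusted p under 0.05, against 26.5% of all. With the array letter as a replicate block it called Srsf6 alone, against 4.63%. Between the isometric and control pools it called 0 of 54, against 0.00% of all with and without the block, and 3 members had an unadjusted p under 0.05 in either fit, against 10.4% of all without and 9.21% with the block. Between the eccentric and isometric pools it called 0 of 52, against 1.20% of all without and 0.135% with the block, and 8 members had an unadjusted p under 0.05 without the block and 6 with it, against 19.1% and 17.3% of all.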

How the data were processed

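Total RNA of 3 pools was measured on 6 Affymetrix MGU74Av2 arrays, 2 per pool. Values are linear intensities as deposited, 1 for each probe set on an array, and how probes were summarised is not given in the sources used here. Trimmed means (2% off each end) were nearly equal between arrays, so the scaling measures each probe set relative to its own array. Gene names came from the platform annotation: 10833 probe sets had 1 gene, 396 several and 1193 were unnamed here, besides 66 Affymetrix controls. All 61 member gene IDs were in the RefSeq gene table of GRCm38.p6.

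Arrays were scaled to one trimmed mean, floored and log2-transformed, and the size rule of the report was applied to all single-gene probe sets. The numbers limit precision to 2 arrays per pool. Named members are those past 1.5-fold and the extremes of each role, with others named from the same table. The members and lists were chosen with earlier results of these data known. Alternatives changed the scaling, floor, filter, fold threshold and probe sets, added limma with and without a replicate block, and left out arrays. Python 3.11.15, numpy 2.4.6, pandas 2.3.3, scipy 1.17.1, matplotlib 3.10.9, R 4.3.3 and limma 3.58.1 were used.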

Additional observations from a re-analysis of the deposited data

How the results depend on the processing

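Of the alternative values of the counts and medians, 173 stayed within the limits set for them and 46 did not. The limits were 1.5 times for a count and the spread between array pairings for a median. The 46 follow, and beyond what the construction of a setting shows, the cause was not tested.

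A 3-fold threshold in place of 1.5-fold left 0 members in the eccentric against control and 0 in the eccentric against isometric comparison. In the eccentric against control comparison limma without a block called 2 members, where 1 passed 2-fold, and 1 with the replicate block, whose array letters only name the arrays of a pool. Dividing each array by its median put 1 member past 1.5-fold in the isometric against control comparison, log2(signal + 50) put 1 there, and a floor at the 20th percentile 2, with 1 past 2-fold. That floor gave 7 past 1.5-fold and 1 past 2-fold for eccentric against isometric. Lower members with no overlap in the isometric against control comparison were 2 with a floor at the 60th percentile and 3 with the brightest probe set of each gene. When control A and isometric B were both dropped, 2 passed 2-fold and 16 were lower in the eccentric against control comparison. In the isometric against control comparison 2 passed 1.5-fold, 30 were higher and 25 lower. That comparison then has 1 array per pool, so every measured probe set counts as not overlapping. Of all probe sets 49.3% were higher and 50.7% lower there. For eccentric against isometric the median was 0.045, 1 passed 2-fold and 20 were lower.

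Leaving out 1 array leaves 2 pairings in place of 4, so more probe sets count as not overlapping. For eccentric against control the median ranged from 0.11 to 0.24, members past 1.5-fold from 6 to 11, past 2-fold from 1 to 4, higher from 28 to 36 and lower from 6 to 16. For isometric against control these ranges were 0.01 to 0.10, 1 to 7, 0 to 1, 16 to 26 and 10 to 20. For eccentric against isometric they were 0.045 to 0.21, 4 to 6, 0 to 1, 23 to 32 and 11 to 20. The counts of members with no overlap under each alternative, and the restriction to plain probe sets, were added after seeing the data.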
